A study of Mus musculus with 2 samples.

Results

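The genes described here are 8 genes of blood clotting, clot removal and matrix assembly: F3, F10, F13a1, Procr, Plau, Plaur, Serpinb2 and Thbs1. They were listed by symbol, and each matched 1 of the 32285 genes counted. The counts are unique molecular identifiers (UMIs, each standing for 1 captured RNA molecule) from single CD45+ immune cells, sorted from digested full-thickness mouse skin and read from the 3' end. DPCP skin was taken on day 2 and control skin on day 0. DPCP is diphenylcyclopropenone, a contact sensitizer, and the series is about contact hypersensitivity. Mouse strain, age, and the number of mice behind each condition are not given in the sources used here. Cells of both conditions carried CellPlex tags and were read as 1 mixed library, so there is 1 tagged sample for each condition. No difference between conditions was therefore tested, and the intervals below, all at 95%, cover counting error alone.

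Clotting outside vessels starts when tissue factor, the product of F3, meets factor VII and together they activate factor X, the product of F10, which leads to thrombin and fibrin. Factor XIII, whose A subunit is the product of F13a1, then cross-links fibrin, and the endothelial protein C receptor, the product of Procr, helps to activate protein C, which slows clotting. Fibrin is removed by plasmin, which urokinase (Plau) makes from plasminogen at its receptor (Plaur), and Serpinb2, plasminogen activator inhibitor 2, blocks urokinase. Thrombospondin 1, the product of Thbs1, is a matrix protein that binds the receptors CD47 and CD36 and can activate latent transforming growth factor beta. Monocytes and macrophages are known sources of several of these proteins in skin, and F13a1 is a known marker of dermal macrophages.

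After filtering, 7588 DPCP cells with 53121083 UMIs and 4967 control cells with 51780668 UMIs were kept, with medians of 4728.5 UMIs per DPCP cell and 8797 per control cell. Clustering, with the 8 genes and their pathway lists left out of the variable genes, gave 23 clusters. Neutrophil-like cells were 4909 of the DPCP cells (64.7%) and 109 of the control cells (2.19%). The other groups named from markers, each given as DPCP cells and then control cells, were monocyte-like (750 and 178), type 2 conventional dendritic cell-like (144 and 526), mature dendritic cell-like (124 and 58), Langerhans cell-like (121 and 56), epidermal gamma-delta T cell-like (297 and 219) and T cell-like (142 and 156). Groups that could not be named from the marker lists are called by number. Cluster 0 (112 and 1606) was led by Thsd4 and Tenm4, cluster 7 (107 and 622) by Lyz1 and Ear2, and cluster 14 (108 and 95) by Ace and Cd300e. Clusters 5 (151 and 753), 11 (99 and 286) and 18 (125 and 1) held macrophage markers, led by Siglec1 and Ly6c2 in cluster 5, by Folr2 and Igf1 in cluster 11, and by Mmp12 and Arg1 in cluster 18. Cluster 17 (74 and 68) mixed type 1 conventional and plasmacytoid dendritic cell markers. Cluster 12 (287 and 23) held monocyte genes together with neutrophil genes and was not used for comparisons between conditions. Ptprc, which encodes CD45, had a UMI in 96.3% of DPCP cells and 98.8% of control cells. In 2860 of the kept DPCP cells and 0 of the kept control cells, under 80% of the tag counts came from the cell's own tag. Levels below are CPM, in which summed UMIs are divided by all UMIs of the same group and brought to the common total that the unit names, and a gene was counted as past the fold at 2-fold and 50 or more UMIs.

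Over all kept cells, 6 of the 8 genes were at least 2-fold higher in DPCP skin, where 14.3% of the 14375 genes with enough UMIs were, and 1 was at least 2-fold lower, where 10.0% were. Thbs1 was 972 CPM in DPCP cells and 20.2 CPM in control cells, a ratio of 48.2 (45.3 to 51.3). Procr was 10.1 CPM in DPCP cells and 0.463 CPM in control cells, a ratio of 21.7 (14.4 to 34.2), from 535 and 24 UMIs. F3 was 21.7 CPM in DPCP cells and 1.87 CPM in control cells, a ratio of 11.6 (9.43 to 14.4). Procr and F3 had the lowest control levels of the 8 genes, F3 with 97 UMIs among all control cells. Thbs1, with 1045 UMIs there, was above Plau (829 UMIs) and Serpinb2 (441 UMIs) in control skin. The ratios of the next 3 genes were closer together, at 3.21 (2.88 to 3.58) for Serpinb2, 3.17 (3.09 to 3.26) for Plaur and 2.50 (2.39 to 2.61) for F10. Plau was 20.2 CPM in DPCP cells and 16.01 CPM in control cells, a ratio of 1.26 (1.15 to 1.39). F13a1 alone was lower, at 555 CPM in DPCP cells and 1125 CPM in control cells, a ratio of 0.494 (0.487 to 0.501). The median log2 ratio was 1.67 for the 8 genes and -0.17 for all genes with enough UMIs. In sorted cells a change in which cells are present and a change within those cells both move these sums, so the groups are taken in turn.

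**Figure D1:**
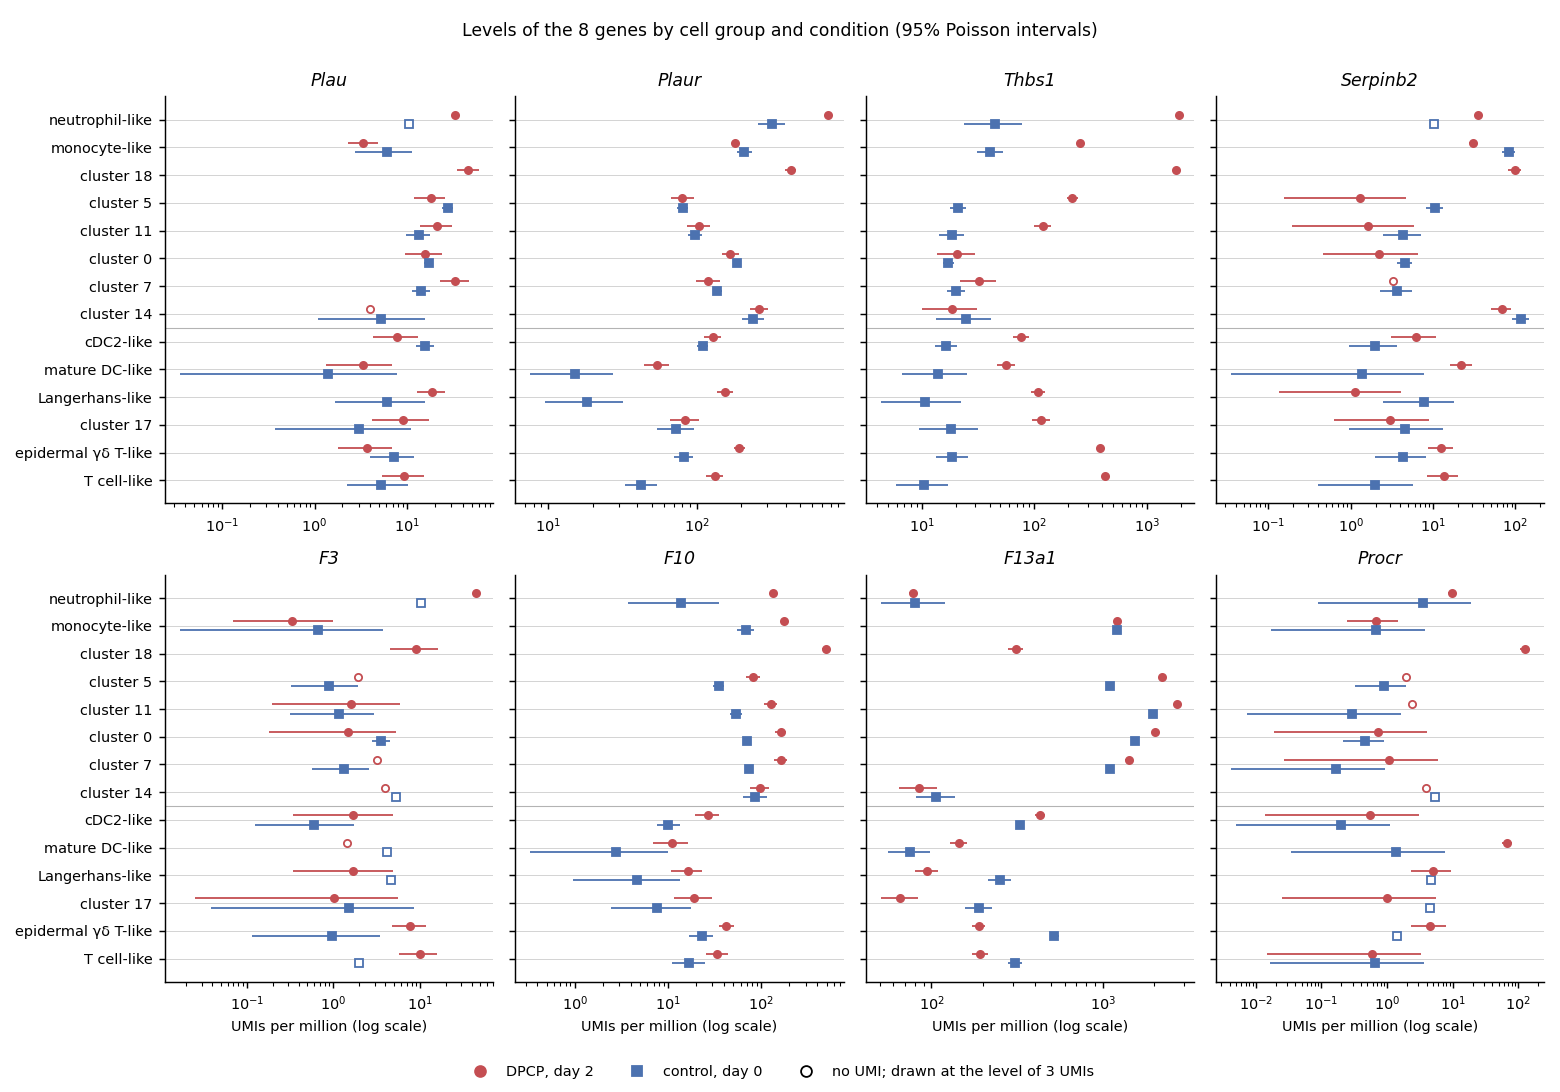
Levels of the 8 genes in 14 cell groups, in CPM on a log axis, with DPCP cells as circles above control cells as squares and 95% Poisson intervals as lines; open symbols mark groups with no UMI, and groups under 50 cells are not drawn. Thbs1 is higher in DPCP cells in most groups, F10 lies to the right of its control square in nearly all groups, and F13a1 is high in the macrophage-marked clusters of both conditions.

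Within the 7 named classes, 20 of 33 gene and class pairs with enough UMIs were at least 2-fold higher in DPCP cells, where 7.36% of all such pairs were, and 4 were at least 2-fold lower, where 7.4% were. Neutrophil-like cells gave 7 of the 20, all but F13a1. The shares of all pairs just given pool the 7 classes and are not those of neutrophil-like cells alone. Over all genes, 4301 of 58412 pairs were higher and 4323 lower in the 7 classes. Without neutrophil-like cells, 3217 of 48275 pairs were higher and 2222 lower. Procr was counted from 208 and 1 UMIs at a ratio of 2.78 (0.493 to 110), an interval that holds 1. Plau, Serpinb2 and F3 had no control UMI there and were counted with 3 UMIs in place of 0. With neutrophil-like cells taken as cluster 2 alone, the 20 became 13. Outside neutrophil-like cells, 13 of 25 pairs in the other 6 named classes were higher (6.66% of all pairs) and 4 were lower (4.6%). In the 6 numbered clusters compared, 9 of 30 pairs were higher (2.95%) and 4 were lower (3.25%). Among the 4 lower, Serpinb2 and F3 in cluster 0 had 3 and 2 DPCP UMIs. Their intervals, 0.0988 to 1.47 and 0.0493 to 1.56, hold 1.

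Tissue factor was in DPCP skin a gene of some neutrophil-like cells. F3 (ENSMUSG00000028128, mm10 chr3:121723537-121735048, plus strand) had 83.5% of its DPCP UMIs in neutrophil-like cells. Across the 5 neutrophil-like clusters of DPCP skin its level was 123 CPM in cluster 3, 49.2 CPM in cluster 10, 23.7 CPM in cluster 1, 2.62 CPM in cluster 2 and 1.78 CPM in cluster 6. Cluster 3 was led by genes such as Ptgs2, Ccl4 and Schip1, cluster 1 by Nqo1 and Olr1, cluster 2 by Nlrp12 and Cd101, and clusters 6 and 10 by Retnlg and Ly6g. F3 and Thbs1 were themselves among the 10 leading genes of cluster 3, although both had been left out of the clustering, which is a description and no test. Clusters 3, 10 and 1 held no control cell, and their intervals did not overlap those of clusters 2 and 6. Control neutrophil-like cells, 103 of which were in cluster 2, held 0 UMIs of F3, and against a floor of 3 UMIs over that group the level in DPCP neutrophil-like cells was at least 4.29-fold higher. A UMI of F3 was found in 220 of the 1039 cells of cluster 3 (21.2%, Clopper-Pearson interval 18.7 to 23.8, median depth 3823 UMIs), against 0 of 109 DPCP T cell-like cells free of neutrophil RNA (median depth 9669 UMIs). These T cell-like cells, also the reference for other genes below, were chosen for little S100a8 and S100a9 RNA. A low share of neutrophil-rich genes there follows in part from that choice. The T cell-like cluster also held 6 of 7 natural killer cell markers, with Gzma and Ncr1 among its 10 leading genes. All 142 DPCP T cell-like cells held 17 UMIs of F3, 228 of Plaur and 730 of Thbs1. After each cell was thinned to 1000 UMIs, the share in cluster 3 was 7.94% (6.36 to 9.77), with 19 shallower cells left out. The UMIs were concentrated: 72 cells held 50% of all F3 UMIs of DPCP skin, and 25 was the highest count in any cell. Monocyte-like cells, a known source of tissue factor, held 3 F3 UMIs among 750 DPCP cells and 1 among 178 control cells. Cluster 12, with monocyte and neutrophil genes in the same cells, held 126 UMIs among 287 DPCP cells (31.3 CPM) and 1 among 23 control cells, and 21 of the 126 lay in the 14 DPCP cells that did not hold neutrophil RNA by the limit given next. Monocyte-like cells and cluster 12 together held 129 UMIs in DPCP skin and 2 in control skin, a ratio of 8.75 (2.37 to 73.0).

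RNA of the neutrophil markers S100a8 and S100a9 was also found in other cells. Outside neutrophil-like cells, 563 DPCP cells and 45 control cells held more than 20 UMIs of S100a8 and S100a9, the limit passed by 1% of control cells outside that class, and they are called cells that hold neutrophil RNA. The limit is not scaled to depth, and whether these cells made the RNA themselves was not tested. It was passed by 95.1% of the DPCP cells of cluster 12, so leaving these cells out also removes most of that cluster. With the cells that hold neutrophil RNA, F3 outside neutrophil-like cells was 6.03 CPM in DPCP cells and 1.88 CPM in control cells, a ratio of 3.20 (2.50 to 4.13). Without them it was 1.72 CPM in DPCP cells and 1.88 CPM in control cells, a ratio of 0.917 (0.617 to 1.34). In control skin the gene's few UMIs lay mostly in cluster 0, which held 71.1% of them at 3.56 CPM, against 1.48 CPM and 2 UMIs in the DPCP cells of cluster 0.

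The promoters of F3, Plaur and Serpinb2 are shown because each holds the letters of an AP-1 site, to which Fos and Jun proteins bind, and because the transcripts of these genes were all higher over DPCP cells. Each line gives the 200 bases before the annotated start, 5′ to 3′ on the gene's strand, from RefSeq on GRCm38.p6, with TGANTCA in capitals. The F3 line is chr3:121723337-121723536, the Plaur line chr7:24462283-24462482 and the Serpinb2 line chr1:107511223-107511422, all on the plus strand.
F3: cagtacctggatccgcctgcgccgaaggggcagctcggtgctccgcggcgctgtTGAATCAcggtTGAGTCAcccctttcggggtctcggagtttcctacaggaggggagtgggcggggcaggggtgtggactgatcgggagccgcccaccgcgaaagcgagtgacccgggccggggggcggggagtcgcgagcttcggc
Plaur: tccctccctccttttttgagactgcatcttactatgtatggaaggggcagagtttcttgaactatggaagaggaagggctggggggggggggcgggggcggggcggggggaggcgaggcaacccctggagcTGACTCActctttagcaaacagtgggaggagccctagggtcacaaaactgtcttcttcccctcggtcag
Serpinb2: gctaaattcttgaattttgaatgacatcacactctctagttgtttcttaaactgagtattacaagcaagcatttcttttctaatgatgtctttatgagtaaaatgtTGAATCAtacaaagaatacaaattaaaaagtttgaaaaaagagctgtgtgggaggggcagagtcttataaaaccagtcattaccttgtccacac

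In F3 the letters began 146 and 135 bases before the start, in Plaur 69 and in Serpinb2 94. The Procr window holds the letters too, 154 bases before its RefSeq start, which lies inside the gene by the GENCODE coordinates given further on, so it is not printed. Windows of 300 bases, from 250 before to 50 after the start, were at hand for 6 of the 8 genes, with F10 and F13a1 the others, and those of F10 and F13a1 held no match. Of 32817 such mouse windows, 7.81% held the letters on either strand, and 0.460% held them at 2 or more places, as the F3 window did. TGANTCA reads the same on both strands apart from its middle letter, and the match is a description of these letters, not of a bound site.

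Urokinase receptor was also highest in neutrophil-like cluster 3, but unlike F3 it was high in cluster 6. Plaur (ENSMUSG00000046223, chr7:24462484-24475968, plus strand) was 1444 CPM in cluster 3, 848 CPM in cluster 10, 543 CPM in cluster 1 and 503 CPM in cluster 6 of DPCP skin, with overlapping intervals in clusters 1 and 6. In cluster 2 it was 296 CPM in DPCP cells and 304 CPM in control cells, a ratio of 0.975 (0.775 to 1.24). Over the whole class it was 767 CPM in DPCP cells and 322 CPM in control cells, a ratio of 2.38 (1.94 to 2.95), while clusters 3, 10 and 1 held 0 control cells and cluster 6 held 6. A UMI was found in 89.4% of the cells of cluster 3 and, with 1000 UMIs per cell, in 65.8% (62.8 to 68.7), against 3.70% (1.02 to 9.21) of DPCP T cell-like cells free of neutrophil RNA.

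**Figure D2:**
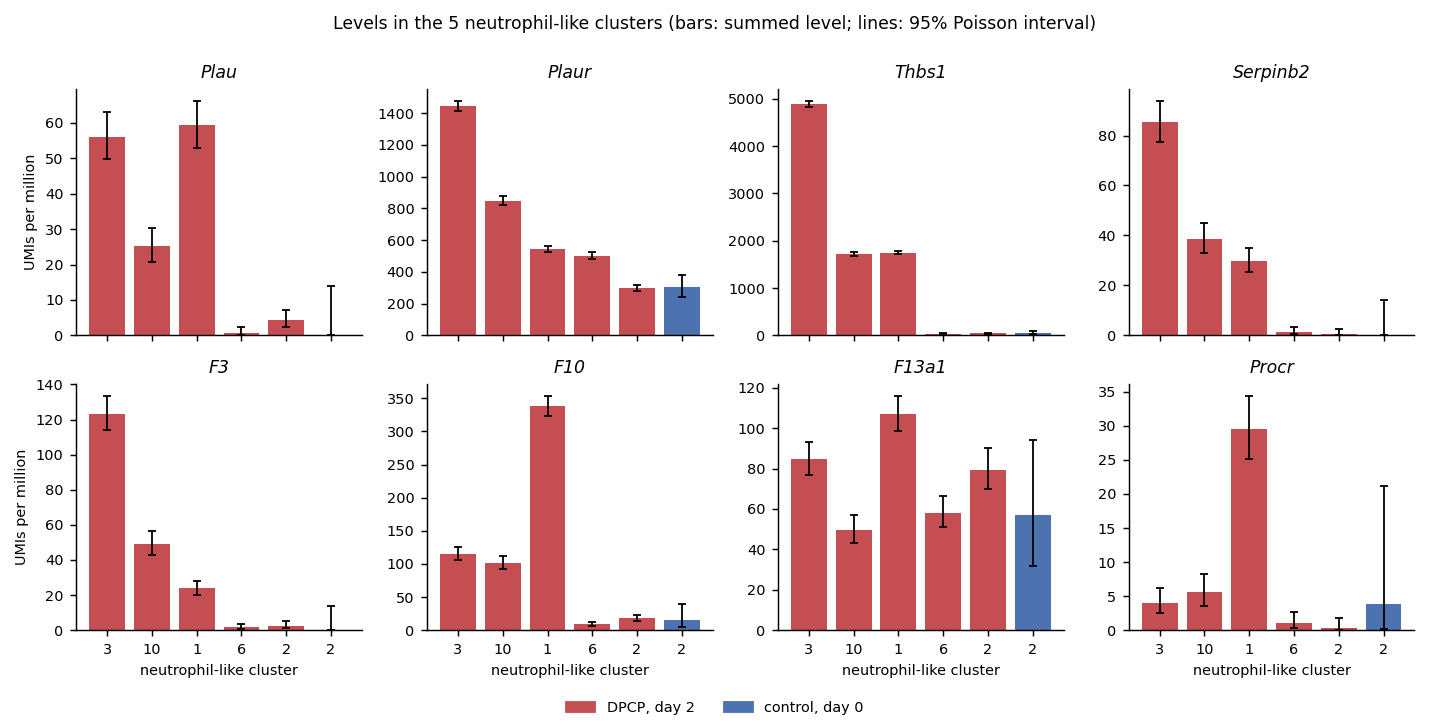
Levels of the 8 genes in the neutrophil-like clusters, in CPM from 0, with DPCP bars for clusters 3, 10, 1, 6 and 2 and a control bar for cluster 2, the cluster with 103 of the 109 control cells; lines are 95% Poisson intervals. Thbs1, F3, Serpinb2 and Plaur are highest in cluster 3, F10 and Procr in cluster 1, and the cluster 2 bars of the conditions have overlapping intervals in all 8 panels.

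Outside neutrophil-like cells, Plaur separated into groups that differed and groups that did not pass the fold. Langerhans cell-like cells had 156 CPM in DPCP skin and 18.4 CPM in control skin, a ratio of 8.46 (4.77 to 16.6) from 279 and 12 UMIs, and without the cells that hold neutrophil RNA the ratio was 7.23 (4.05 to 14.2). Monocyte-like cells had 182 CPM in DPCP skin and 210 CPM in control skin, a ratio of 0.865 (0.766 to 0.979). Ratios in clusters 0, 5, 7, 11 and 14 ran between 0.869 and 1.10. The ratio in epidermal gamma-delta T cell-like cells was 2.38 (2.00 to 2.85) with all cells and 0.942 (0.747 to 1.19) without those that hold neutrophil RNA. In T cell-like cells the ratio was 3.14 (2.37 to 4.203) with all cells and 1.19 (0.834 to 1.71) without them, and in mature dendritic cell-like cells it was 3.55 (1.91 to 7.32) with all cells and 1.45 (0.718 to 3.16) without them.

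Thbs1 (ENSMUSG00000040152, chr2:118111876-118127133, plus strand) had the largest ratio of the 8 genes over all kept cells, and neutrophil-like cells held 79.9% of its DPCP UMIs. Its level in DPCP skin was 4894 CPM in cluster 3, with 46.8% of all DPCP UMIs of the gene, 1750.2 CPM in cluster 1 and 1717 CPM in cluster 10. In clusters 2 and 6 it was 40.3 and 33.6 CPM. Cluster 2 of control skin had 49.4 CPM, so the ratio there was 0.817 (0.461 to 1.58). In cluster 3, 79.0% (76.4 to 81.5) of cells thinned to 1000 UMIs had a Thbs1 UMI, against 5.56% (2.07 to 11.7) of DPCP T cell-like cells free of neutrophil RNA. Cluster 18, the Mmp12 and Arg1 group that was nearly absent from control skin, reached 1811 CPM, and 84 of its 125 cells had a UMI (67.2%, 58.2 to 75.3).

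Thbs1 was also higher in DPCP skin in cells that are not neutrophil-like. Monocyte-like cells had 253 CPM in DPCP skin and 40.7 CPM in control skin, a ratio of 6.20 (4.81 to 8.14), and 6.24 without the cells that hold neutrophil RNA. Cluster 5 had 217 CPM in DPCP skin and 20.97 CPM in control skin, a ratio of 10.4 (8.49 to 12.7), and 10.0 without those cells. In cluster 11 the ratio was 6.39 with all cells and 2.63 (1.77 to 3.87) without those that hold neutrophil RNA, and in type 2 conventional dendritic cell-like cells it was 4.62 with all cells and 2.11 (1.47 to 3.02) without them. In these dendritic cells the log2 ratio of 2.21 became 0.95, below the fold, with 4000 variable genes. Epidermal gamma-delta T cell-like cells, 28.3% of which held neutrophil RNA in DPCP skin, had a ratio of 20.6 with all cells and 1.69 (1.10 to 2.61) without them. T cell-like cells had a ratio of 40.8 with all cells and 8.96 (5.30 to 16.2) without them, and Langerhans cell-like cells 10.1 with all cells and 5.06 (2.35 to 12.97) without them. The mature dendritic cell-like ratio was 4.08 with all cells and 0.955 (0.430 to 2.27) without them, from 21 and 10 UMIs. Cluster 0, the largest group of control skin, had 20.7 CPM in DPCP cells and 17.3 CPM in control cells, a ratio of 1.20 (0.786 to 1.77).

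**Figure D3:**
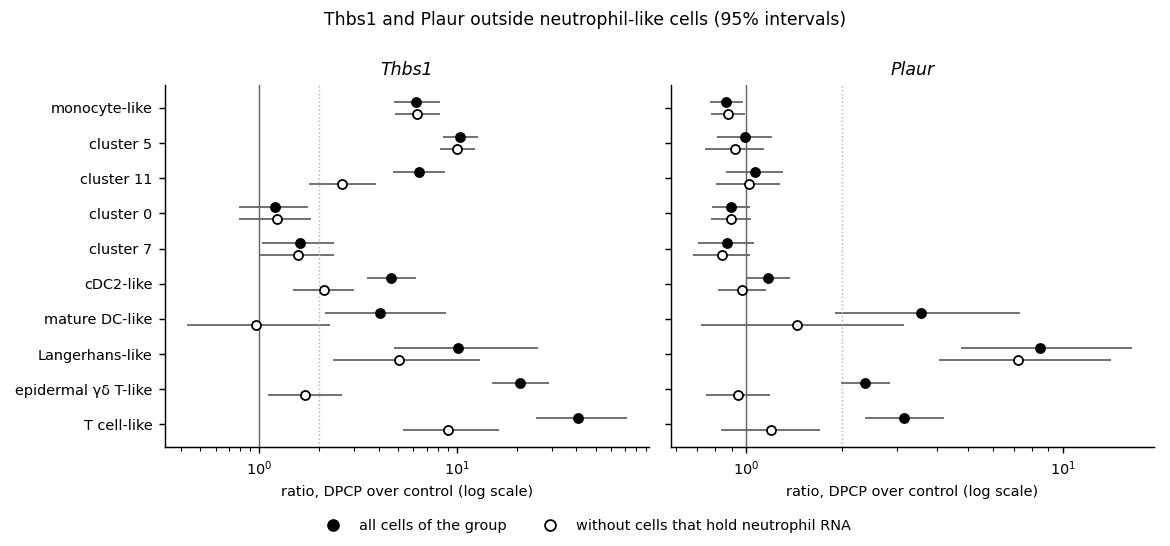
Ratios of Thbs1 and Plaur levels, DPCP over control on a log axis, in 10 groups outside neutrophil-like cells, with all cells of the group as filled circles and without cells that hold neutrophil RNA as open circles; lines are 95% intervals. The Thbs1 circles of monocyte-like cells (6.20 and 6.24) and cluster 5 (10.4 and 10.0) coincide, while those of epidermal gamma-delta T cell-like cells lie at 20.6 and 1.69.

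With the cells that hold neutrophil RNA left out, 9 of 23 pairs in the 6 named classes other than neutrophil-like remained at least 2-fold higher, where 5.82% of all pairs were, and 2 were lower, where 4.55% were. In the numbered clusters 7 of 29 pairs were higher (2.64%) and 3 were lower (3.44%).

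Factor X was at least 2-fold higher in DPCP cells in 6 of the groups outside neutrophil-like cells. By this measure 6.66% of all gene and class pairs were higher in the other named classes and 2.95% in the numbered clusters. F10 (ENSMUSG00000031444, chr8:13037308-13056676, plus strand) was 177 CPM in DPCP monocyte-like cells and 68.1 CPM in control ones, a ratio of 2.60 (2.12 to 3.21). Cluster 0 had 163 CPM in DPCP cells and 71.0 CPM in control cells, a ratio of 2.29 (1.98 to 2.64). The ratios in clusters 5, 7 and 11 were 2.34, 2.19 and 2.36, and that of type 2 conventional dendritic cell-like cells was 2.63 (1.74 to 3.99). These 6 groups, which differ in their marker genes, had ratios between 2.19 and 2.63, and without the cells that hold neutrophil RNA their ratios lay between 2.15 and 2.80. They were picked for passing the fold, so the lower end of the first range is partly set by that choice. On the log2 scale the difference came below the fold in cluster 7 with no doublet removal (0.50) and with the mean over cells (0.64), in type 2 conventional dendritic cell-like cells with the stricter cell filter (just under 1), in monocyte-like cells with 4000 variable genes (0.98) and in cluster 0 at a finer clustering (0.98). The ratio was 9.75 (3.804 to 35.8) in neutrophil-like cells, from 2922 and 4 UMIs, 1.997 (1.24 to 3.30) in T cell-like cells, 1.84 (1.30 to 2.63) in epidermal gamma-delta T cell-like cells and 1.11 (0.762 to 1.63) in cluster 14. Without the cells that hold neutrophil RNA, T cell-like cells passed the fold too, at 2.16 (1.31 to 3.63). The highest levels in DPCP skin were 489 CPM in cluster 18 and 338 CPM in neutrophil-like cluster 1, where it was above neutrophil-like clusters 3 (116 CPM) and 10 (101 CPM). After thinning to 1000 UMIs, 12.8% (10.4 to 15.4) of DPCP monocyte-like cells and 5.11% (2.36 to 9.49) of control ones had an F10 UMI, against 0.926% and 1.29% of T cell-like cells of DPCP and control skin free of neutrophil RNA. F7, the gene of the tissue factor partner factor VII, ends 1499 bases before F10 on the same strand and was 11.5 CPM in DPCP cells and 11.2 CPM in control cells over all kept cells.

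Factor XIII A was lower over all cells but not lower within the groups that held most of it. F13a1 (ENSMUSG00000039109, chr13:36867178-37050244, minus strand) was 2219 CPM in DPCP cells and 1106 CPM in control cells of cluster 5, a ratio of 2.01 (1.93 to 2.09), but below the fold in 7 alternatives, with log2 ratios of 0.88 and above. In cluster 11 it was 2700.2 CPM in DPCP cells and 1955 CPM in control cells, a ratio of 1.38 (1.32 to 1.44). Cluster 0 had 2014 CPM in DPCP cells and 1551 CPM in control cells, a ratio of 1.30 (1.25 to 1.35), and monocyte-like cells had 1206 CPM in DPCP skin and 1213 CPM in control skin, a ratio of 0.994 (0.946 to 1.05). The groups that held its UMIs also differed between conditions. Cluster 0 held 9.23% of the DPCP UMIs of F13a1 and 51.5% of the control UMIs, while monocyte-like cells held 36.4% in DPCP skin and 3.12% in control skin. Cluster 0 itself was 1.48% of DPCP cells and 32.3% of control cells. Neutrophil-like cells, which made up most DPCP cells, had 77.7 CPM in DPCP skin and 79.7 CPM in control skin.

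In lymphoid and Langerhans groups the F13a1 ratio was below 1. Epidermal gamma-delta T cell-like cells had 189.6 CPM in DPCP skin and 522 CPM in control skin, a ratio of 0.363 (0.326 to 0.403), T cell-like cells had 192 CPM in DPCP skin and 308 CPM in control skin, a ratio of 0.624 (0.540 to 0.720), and Langerhans cell-like cells had a ratio of 0.375 (0.301 to 0.468). Without the cells that hold neutrophil RNA the ratios of these 3 groups were 0.521, 0.731 and 0.424. Cluster 17 had a ratio of 0.346 (0.252 to 0.471), but a log2 ratio of 0.35 in place of -1.53 with no cell filter and at a finer clustering. In T cell-like cells, which are not known for factor XIII A, free RNA can give UMIs: 12.04% of DPCP and 17.4% of control T cell-like cells free of neutrophil RNA had an F13a1 UMI after thinning to 1000 UMIs. The part of free RNA in these ratios was not tested. 2 antisense genes, Gm49144 and Gm30489, overlap F13a1, and the sources used here do not say how strand entered the counting.

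**Figure D4:**
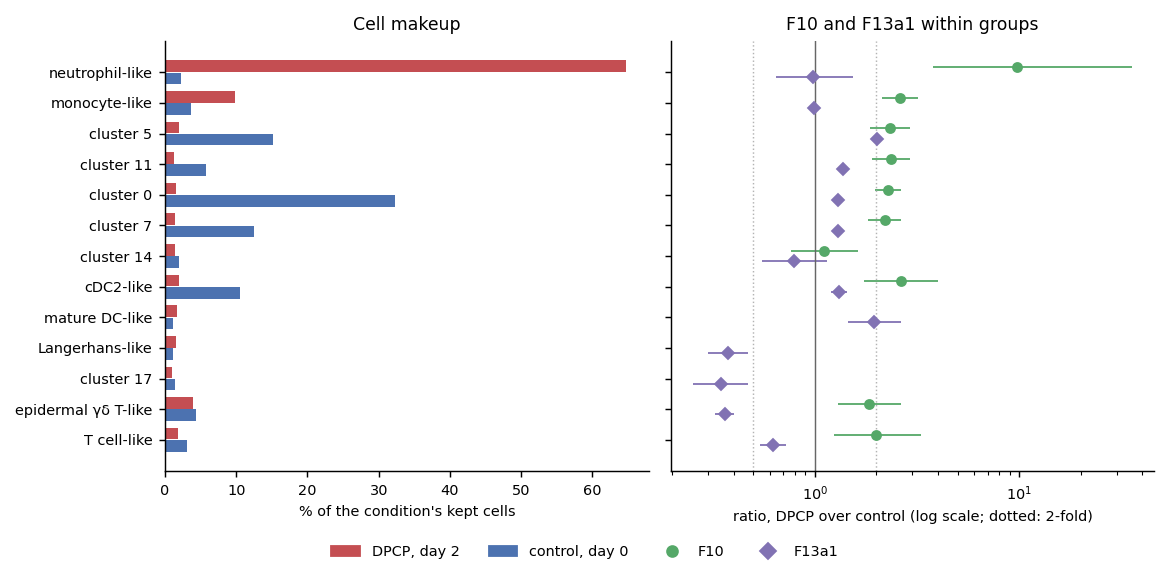
Left, percentage of each condition's kept cells in 13 groups, with DPCP bars above control bars; right, ratios of F10 (circles) and F13a1 (diamonds), DPCP over control on a log axis with 95% intervals, where a gene had 50 or more UMIs. Neutrophil-like cells are 64.7% of DPCP and 2.19% of control cells, the F10 ratios of the 6 other groups that passed the fold lie between 2.19 and 2.63, and the F13a1 ratios lie on both sides of 1.

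The levels of the 13 groups were also weighted by their share of UMIs in 1 condition, a measure chosen after the values were seen. Neutrophil-like cells have 40.7% of the weight with DPCP shares and 0.558% with control shares. With control weights the ratio was 5.94 for Thbs1, 4.10 for Procr, 2.28 for F10 and 1.36 for F13a1. It was 1.03 for Plaur, 1.02 for Plau, 0.949 for F3 and 0.594 for Serpinb2. With DPCP weights it was 28.7 for Thbs1, 4.34 for Procr, 3.97 for F10, 1.99 for Plaur and 1.10 for F13a1. It was 50.9 for F3, 4.17 for Plau and 1.34 for Serpinb2, 3 ratios that take the 0 UMIs of control neutrophil-like cells as a level of 0. The ratios of Thbs1, F3, Plau, Plaur, Serpinb2 and F10 thus depended on which weights were used. Those of F3 and Serpinb2 were below 1 with control weights and above 1 with DPCP weights. The ratio of F13a1 was above 1 with both and below 1 over all kept cells. Clusters 12 and 18 had too few control cells to enter.

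**Figure D5:**
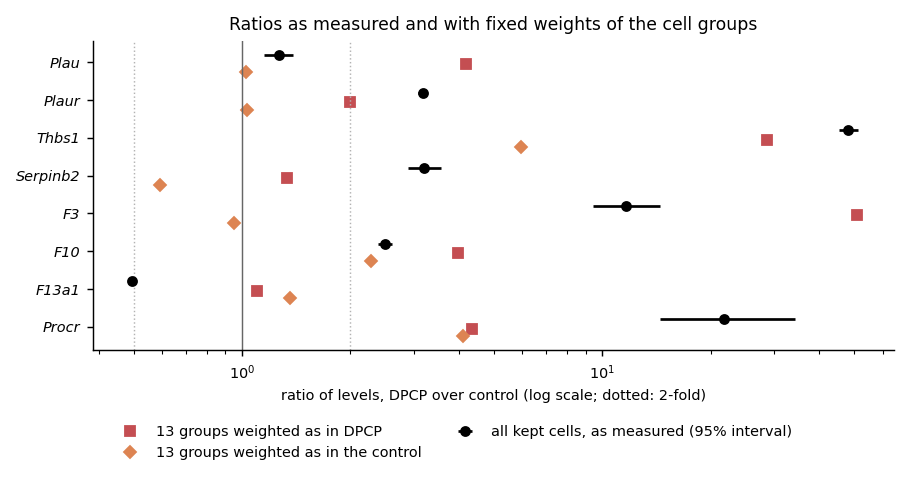
Ratios of levels, DPCP over control on a log axis, over all kept cells as measured (circles, 95% intervals) and over 13 groups weighted by their share of DPCP UMIs (squares) or of control UMIs (diamonds); dotted lines mark 2-fold. The 3 symbols of F10 lie above 2, at 2.50, 3.97 and 2.28, those of F3 lie at 11.6, 50.9 and 0.949, and those of F13a1 at 0.494, 1.10 and 1.36.

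Serpinb2 (ENSMUSG00000062345, chr1:107511423-107535478, plus strand) had a ratio below 1 in monocyte-like cells and above 1 over neutrophil-like cells taken as a whole. Monocyte-like cells had 30.6 CPM in DPCP skin and 83.5 CPM in control skin, a ratio of 0.366 (0.295 to 0.456). A UMI was found in 22.4% of DPCP monocyte-like cells (median depth 11450 UMIs) and in 38.2% of control ones (median depth 7422 UMIs), against 4.59% of DPCP T cell-like cells free of neutrophil RNA, and after thinning the shares were 3.22% (2.07 to 4.76) and 6.82% (3.57 to 11.6), with overlapping intervals. When each cell was assigned by its own markers, without clusters, the log2 ratio in monocyte-like cells was 0.50 in place of -1.45. Cluster 5 had 2 UMIs in DPCP cells and 71 in control cells, a ratio of 0.123 (0.0146 to 0.459), and in cluster 14, where the level was 68.4 CPM in DPCP cells and 117 CPM in control cells, the ratio was 0.586 (0.3996 to 0.856). Neutrophil-like cells had 35.0 CPM in DPCP skin and 0 UMIs in control skin, at least 3.37-fold higher. Among the DPCP clusters Serpinb2 was 85.3 CPM in cluster 3, 38.6 CPM in cluster 10 and 29.9 CPM in cluster 1, and 98.9 CPM in cluster 18. The gene was carried by few cells: 41 of the 7588 DPCP cells held 50% of its UMIs, and 1 cell of neutrophil-like cluster 10 held 90. In mature dendritic cell-like cells of DPCP skin all 46 UMIs came from 1 cell. Serpinb10 overlaps Serpinb2 on the same strand and its annotated gene was not among those counted, so the origin of reads of the overlap may be uncertain.

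Procr (ENSMUSG00000027611, chr2:155751117-155755471, plus strand) had most of its DPCP UMIs in 3 groups. Mature dendritic cell-like cells had 67.5 CPM in DPCP skin and 1.38 CPM in control skin, from 141 and 1 UMIs, a ratio of 48.8 (8.61 to 1940.3). A UMI was found in 33 of 124 DPCP cells (26.6%, 19.1 to 35.3) and in 1 of 58 control cells (1.72%, 0.0436 to 9.24), with a median of 15360 UMIs per DPCP cell and 11607 per control cell. Without the cells that hold neutrophil RNA the ratio was 60.0 (10.6 to 2388). In cluster 18 the level was 126 CPM, and 36 of 125 cells (28.8%, 21.1 to 37.6) had a UMI. Neutrophil-like cluster 1 had 29.5 CPM, against 4.05 CPM in cluster 3, 5.55 CPM in cluster 10 and 0.328 CPM in cluster 2 of DPCP skin. In T cell-like cells of DPCP skin free of neutrophil RNA, 0.917% of cells had a UMI at a median depth of 9669 UMIs. As with Serpinb2, few cells carried it: 26 DPCP cells held 50% of its UMIs. Platelet marker RNA was highest in cluster 18, where the summed level of 8 platelet markers was 292 CPM, and was 33.5 CPM in DPCP mature dendritic cell-like cells and 1.38 CPM in control ones, with Gp9 at 0 in both conditions. It was 50.9 CPM in DPCP Langerhans cell-like cells, where Procr was 5.03 CPM from 9 UMIs. Ppbp, 1 of the 8 markers, was the second closest gene to Procr (r = 0.78, as measured below), and its share of these sums was not taken out. The part of platelet RNA in these levels was not tested.

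Plau (ENSMUSG00000021822, chr14:20836660-20843385, plus strand) had its UMIs in different groups in each condition, and so did the UMIs of all genes together. Neutrophil-like cells held 67.2% of its UMIs in DPCP skin and none in control skin, where the most UMIs, 40.3%, were in cluster 0. In DPCP neutrophil-like cells it was 59.4 CPM in cluster 1, 56.1 CPM in cluster 3, 25.2 CPM in cluster 10, 4.26 CPM in cluster 2 and 0.763 CPM in cluster 6. Outside neutrophil-like cells the level was 11.2 CPM in DPCP skin and 16.1 CPM in control skin, a ratio of 0.696 (0.613 to 0.790). Cluster 7 went the other way, with 33.2 CPM in DPCP cells and 14.2 CPM in control cells, a ratio of 2.34 (1.497 to 3.56), while type 2 conventional dendritic cell-like cells had 7.79 CPM in DPCP skin and 15.7 CPM in control skin, a ratio of 0.496 (0.259 to 0.882) from 14 and 79 UMIs. The direction in these dendritic cells depended on the clustering, with a log2 ratio of -1.01 here, 0.31 at a finer clustering and 0.38 with 4000 variable genes. In cluster 18 it was 45.8 CPM.

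In DPCP skin, then, levels of Thbs1, Plaur, F3 and Serpinb2 were highest in neutrophil-like cluster 3 among neutrophil-like cells, and F10, F13a1 and Procr in cluster 1, while the Plau intervals of clusters 1 and 3 overlapped. Across 34 groups of at least 50 cells (cluster by condition), the Pearson correlation of log2(CPM + 1) between Thbs1 and F3 was 0.82, between Plaur and F3 0.72 and between Thbs1 and Plaur 0.68, while F13a1 and Plaur gave -0.24. The points share 1 library and differ in depth and cell number, so these are descriptions. The genes most like Thbs1 over these groups were Gm13986 (r = 0.94), Spp1 (r = 0.93) and Ier3 (r = 0.92). Gm13986 is a noncoding transcript on the minus strand, and its annotated start lies 674 bases from the Thbs1 start, with the 2 genes pointing apart. Gm29233, a counted noncoding gene, lies inside Thbs1 on the minus strand, and how strand entered the counting is not given. The closest to F10 were Hmox1 (r = 0.87), Atp1b3 (r = 0.82) and Mmp19 (r = 0.79), and to F13a1 Ms4a8a (r = 0.94), Fn1 (r = 0.92) and Ndst2 (r = 0.92). Xylt1 was closest to Plaur (r = 0.90), Vmn2r19 to F3 (r = 0.91), Mif to Plau (r = 0.77), Mapkapk2 to Serpinb2 (r = 0.75) and Cxcl1 to Procr (r = 0.80).

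Of 73 other genes listed for these pathways, 72 matched a counted gene and 46 had enough UMIs over all kept cells, and 15 of them were at least 2-fold higher and 6 at least 2-fold lower in DPCP skin, with a median log2 ratio of 0.11. Of all genes with enough UMIs, 14.3% were higher and 10.0% lower by this measure, and the lower count is near that share. Among coagulation factors 3 of 6 were higher, among them F5, the factor V gene, with 51.8 CPM in DPCP cells and 20.2 CPM in control cells, a ratio of 2.56 (2.38 to 2.75). The fibrinogen genes Fga, Fgb and Fgg had no UMI. Among anticoagulants 4 of 7 were higher and 1 was lower: Pros1, the protein S gene, was 57.7 CPM in DPCP cells and 156 CPM in control cells, a ratio of 0.369 (0.354 to 0.385). In the plasminogen system 2 of 9 were higher and 1, Clec3b, was lower, and S100a10, a plasminogen receptor subunit, was 337 CPM in DPCP cells and 637 CPM in control cells, a ratio of 0.529. Plat, the tissue plasminogen activator gene, which was named after its values were seen, had 115 UMIs in DPCP cells and 11 in control cells, a ratio of 10.2 (5.49 to 20.985). Plg itself had no UMI. Among protease-activated receptors none of 3 was higher, and F2rl2, also named after its values were seen, was lower with a ratio of 0.188 (0.160 to 0.221).

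Among thrombospondins and their receptors 3 of 9 were higher and 2 were lower. Sdc4, the syndecan 4 gene, was 69.9 CPM in DPCP cells and 16.1 CPM in control cells, a ratio of 4.33 (4.02 to 4.68), while Cd36, a thrombospondin 1 receptor, was 27.3 CPM in DPCP cells and 80.2 CPM in control cells, a ratio of 0.340 (0.320 to 0.361). Calr, the calreticulin gene, was 249.6 CPM in DPCP cells and 447 CPM in control cells, a ratio of 0.558. In the vitamin K and phosphatidylserine list 1 of 6 was lower, Vkorc1, with 9.85 CPM in DPCP cells and 24.5 CPM in control cells, a ratio of 0.402. Of the relatives of Serpinb2, 3 of 6 were higher: Serpinb9, an inhibitor of granzyme B, was 39.6 CPM in DPCP cells and 9.64 CPM in control cells, a ratio of 4.11 (3.73 to 4.54), and Serpinb6b had a ratio of 3.33 (2.98 to 3.72), while Serpinb6a had a ratio of 0.599. These sums carry the change in cell makeup as those of the 8 genes do, and without neutrophil-like cells 8 of these genes, not 15, were at least 2-fold higher.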

How the data were processed

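CD45+ skin cells of both conditions were read as 1 mixed library with CellPlex tags. The authors deposited raw UMI counts per gene and cell, made with Cell Ranger 7.0.0 per the file headers; the submitters' processing notes name Cell Ranger 6.1.1, Seurat 4.0.1 and mm10. Each cell's condition is its barcode suffix, read by row order in the deposited aggregation list; no barcode sequence was shared between suffixes (0). Of 14146 barcodes with 53748585 DPCP and 54397154 control UMIs, 7588 DPCP and 4970 control barcodes passed a minimum of 200 genes per cell and a 10% ceiling on mitochondrial UMIs, and 12555 were kept after doublet calling; the mitochondrial ceiling removed 3.53% of DPCP and 20.8% of control barcodes. Scrublet called 3 control cells and 0 DPCP cells (0.0239%), which were removed; at this rate the caller has not worked, and doublets remain.

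Cells were clustered with scanpy 1.11.5 (2000 variable genes, 30 components, 15 neighbours, Leiden resolution 1.0, leidenalg 0.10.2). A cluster was named from at least 3 markers, each present in 10% or more of the cluster and 2-fold above the rest; a class with a cluster led by another class's markers was compared by cluster number. UMIs were summed per group and condition with at least 50 cells. Levels have exact Poisson intervals, ratios exact conditional binomial intervals, and shares Clopper-Pearson intervals at 95%; against 0 UMIs the floor was 3 counts over the group. The ratio step was tested on simulated data. UMIs are molecules, but intervals do not cover differences between mice. The members and lists were chosen with earlier results of these data known. Pathway genes were named where they had 50 UMIs and 20 CPM in a condition, at most the 10 with the largest ratio either way, and like genes as the closest 3 with 200 UMIs and 50 CPM in some group. The alternatives were other cell filters, doublet limits, scalings, tag limits, UMI minimums, folds and clusterings. Tag counts served only for the own-tag limit. The result of 1 listed pathway gene is not reported here.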

Additional observations from a re-analysis of the deposited data

Results flagged for a closer look

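In 3 genes the ratio passed 2-fold in one direction in one cell group and in the other direction in another, with intervals that left out 1. The differences between groups were not tested, since each condition is 1 tagged sample. Plau had a log2 ratio of 1.68 against the floor in neutrophil-like cells, where control cells held no UMI, and of -1.01 in type 2 conventional dendritic cell-like cells. Serpinb2 had a log2 ratio of 1.75 in neutrophil-like cells, also against the floor, and of -3.03 in cluster 5, from 2 DPCP and 71 control UMIs there. For Plau and Serpinb2 the neutrophil-like control cells lay mostly in cluster 2, with 103 cells. In cluster 2 alone both genes had too few UMIs to be compared. F13a1 had a log2 ratio of 1.004 in cluster 5 and of -1.53 in cluster 17.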

How the results depend on the processing

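With 1 tagged sample per condition no replicate could be left out, and no paired analysis was possible because no replicate numbers are shared. Over the alternatives, 914 ratios were taken for 71 gene and group pairs. Of them 735 stayed within the first interval, 169 moved beyond it without reversing, and 10 reversed. The 735 include 71 ratios at a minimum of 10 UMIs and 52 at a minimum of 200 UMIs. A UMI minimum leaves each ratio as it was, so those ratios could not move. Over all kept cells the 6 genes higher became 5 at a fold of 3, 5 without neutrophil-like cells and 4 without them and the cells that hold neutrophil RNA. The 1 lower gene, F13a1, became 0 with at least 80% own tag, at a fold of 3 and without neutrophil-like cells, also when cells that hold neutrophil RNA were left out too. In the named classes the 20 pairs higher became 13 when neutrophil-like cells were cluster 2 alone, and the 4 lower became 2 with the highest doublet scores removed, at 80% own tag and without cells that hold neutrophil RNA, and 0 at a fold of 3. In numbered clusters the 9 higher became 5 with the stricter filter, with the genes allowed among variable genes and with 4000 variable genes, and 3 with no doublet removal, a fold of 3 and Leiden resolution 0.5. The 4 lower there became 2 with no cell filter, no doublet removal, the highest doublet scores removed, 80% own tag, Leiden resolution 2 and 4000 variable genes, 1 at a fold of 3 and 0 at 200 UMIs. Some numbered clusters have no counterpart after another clustering, and the per-cell gate gives none. The 15 other pathway genes higher became 7 at 200 UMIs, 8 without neutrophil-like cells and 6 without them and the cells that hold neutrophil RNA.

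The log2 ratio of Plau in type 2 conventional dendritic cell-like cells was 0.45 with no cell filter, 0.31 at Leiden resolution 2 and 0.38 with 4000 variable genes. That of F13a1 in cluster 5, 1.004 at first, was below the fold in 7 alternatives, at 0.88 with the genes allowed among variable genes, 0.89 at Leiden resolution 0.5, 0.90 with the stricter filter, 0.95 with the highest doublet scores removed, 0.97 with the mean over cells, 0.99 without cells that hold neutrophil RNA and 0.997 at 80% own tag. That of F13a1 in cluster 17 was 0.35 with no cell filter and 0.35 at Leiden resolution 2, and that of Serpinb2 in monocyte-like cells was 0.50 with the gate on each cell. Plaur in epidermal gamma-delta T cell-like cells had -0.086 without cells that hold neutrophil RNA. In neutrophil-like cluster 2 alone Plaur had -0.037 and Thbs1 -0.29, and F3 over all cells had -0.13 without neutrophil-like cells and cells that hold neutrophil RNA. Cluster 2 alone, the settings without neutrophil-like cells, and cluster 12 joined to monocyte-like cells were chosen after seeing the data. The cause was not tested where the setting does not itself remove the cells. Depth limits F3 and Procr in control skin, with 97 and 24 UMIs.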
